A study of Mus musculus with 6 samples.

Results

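The annexins are a family of proteins that bind negatively charged phospholipids when calcium is present. The 10 annexin genes described here (Anxa1, Anxa2, Anxa3, Anxa4, Anxa5, Anxa6, Anxa7, Anxa10, Anxa11 and Anxa13) were taken by name, with every probe whose RefSeq accession belongs to one of them, out of 20018 genes named on the arrays. Anxa8 and Anxa9, also on the arrays, are not among them. They were represented by 13 probes, 7 genes by 1 probe and 3 genes (Anxa1, Anxa7 and Anxa11) by 2 probes. RNA came from the right liver lobe of male mice of the C57BL/6J strain, sampled on day 3 after surgery. PVBL stands for mice whose left portal vein branch had been tied off, which leaves portal blood to the right lobe, taken as the regenerating liver. Sham mice had a sham operation only. Each group held 3 samples, each measured on its own single-colour Agilent array. No genotype, transgene or drug is given for either group, and the age of the mice is not given in the sources used here. The labels number the samples but name no animals, so p-values cover only the variation among these samples, part of which may be technical.

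Annexins share a core of conserved repeats that holds the calcium and lipid binding sites, and differ mainly in a short or long amino-terminal tail that binds partner proteins, many of them of the S100 family. They are known for organising membranes and the actin beneath them, for vesicle traffic and for patching torn plasma membrane, and annexin A1 is also released as a ligand of formyl peptide receptors. In liver, annexin A2 is known to be low in resting hepatocytes and abundant in hepatocellular carcinoma.

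On each array between 48.1% and 53.6% of 55681 probes were well above background, and the signal at the 75th percentile lay between 331 and 407 units on the PVBL arrays and between 203 and 315 units on the sham arrays. The defining hepatocyte markers (10 genes, Alb and Hnf4a among them) were well above background on all 6 arrays. Arrays of the PVBL group correlated with each other at r from 0.983 to 0.991, those of the sham group at 0.991 to 0.996, and arrays of different groups at 0.956 to 0.968, over probes, which are not independent replicates. All arrays came from 1 scan of 1 slide, with PVBL in row 2 and sham in row 1, so the effects of surgery and of slide position cannot be told apart. In bulk tissue, a change in the number of cells of a type and a change of RNA per cell cannot be told apart either.

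Of the annexin genes 4 were higher in the regenerating lobe and 0 were lower. Anxa2 was 8.16-fold higher in PVBL than in sham (95% interval 5.93 to 11.2), Anxa5 4.02-fold (3.23 to 5.004), Anxa1 2.31-fold and 2.36-fold in its 2 probes, and Anxa4 1.504-fold (1.24 to 1.82). Anxa3 and probe A_51_P402458 of Anxa7 lay just short of the threshold. The brighter probe of Anxa7, as well as Anxa6, Anxa11 and Anxa13, did not pass it, and Anxa10 did not stand well above background on any of the arrays. Groups were compared with limma over 27909 probes, and a probe was called at a Benjamini-Hochberg adjusted p under 0.05. Of the 13 annexin probes 12 were tested, all of them well above background on all 6 arrays, so none entered through one group alone. Of these 12, 5 were called higher, against 11.3% of all probes tested, and 0 were called lower, against 19.3% of all probes tested (30.5% in either direction). At an unadjusted p under 0.05, 0 annexin probes were lower as well. All 3 PVBL values lay above all 3 sham values for 8 of the 12 probes, against 17.6% of all probes, and below them for 0, against 33.0%. The median log2 difference was 0.49 over the annexin probes and -0.19 over all probes tested. All differences are relative to the array's 75th percentile. When spike-in probes set the scale the median of all probes moved to 0.25, and the changes are read relative to that bulk.

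**Figure D1:**
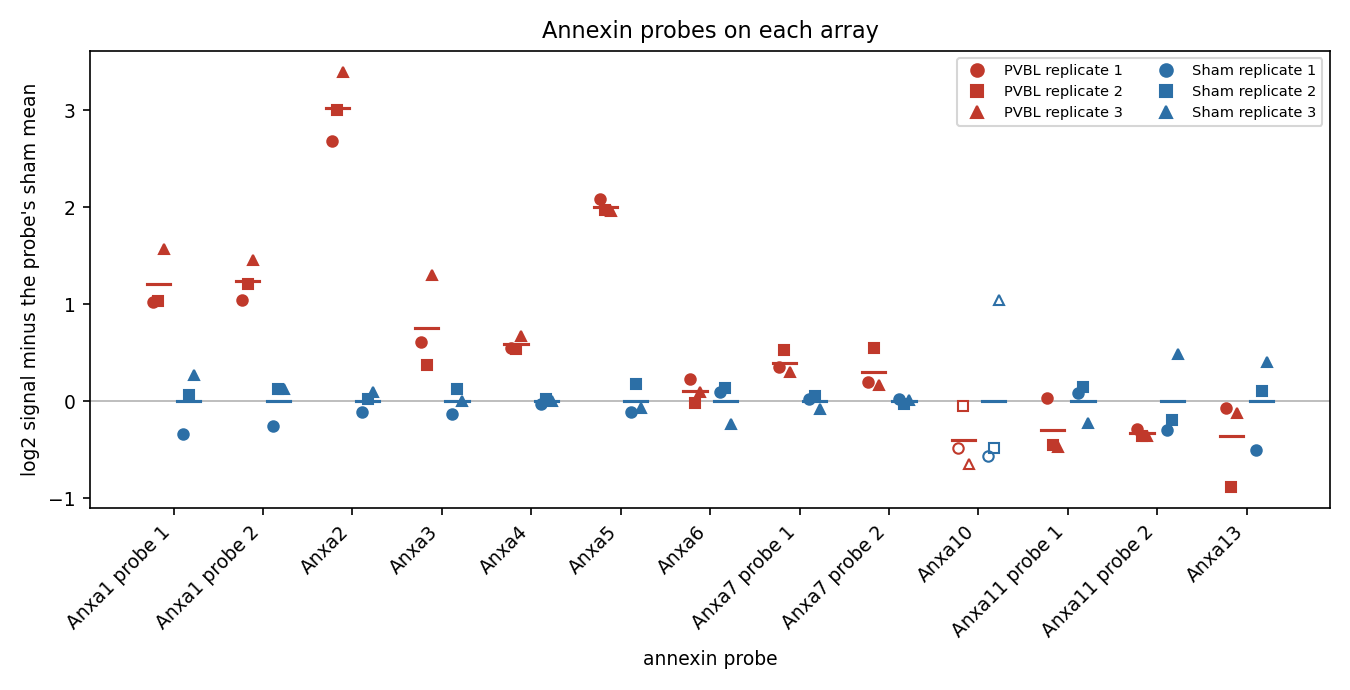
Signal of each annexin probe on each array, as log2 signal minus the mean of the 3 sham arrays for that probe (y axis), with 1 position per probe (x axis), PVBL arrays in red and sham arrays in blue, the symbol giving the replicate and the short line the group mean. Probe 1 and probe 2 are A_55_P2092826 and A_66_P120567 for Anxa1, A_51_P402458 and A_55_P1962039 for Anxa7, and A_55_P1977583 and A_55_P2084820 for Anxa11, and open symbols mark Anxa10, which was not well above background. PVBL and sham are apart for Anxa1, Anxa2, Anxa3, Anxa4, Anxa5 and Anxa7, and overlap for Anxa6, Anxa11 and Anxa13.

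Anxa2, whose protein pairs with S100A10 into a membrane-bound tetramer that holds plasminogen and its activator at the cell surface, had the widest gap between the groups. Its processed signal was 20472, 20804 and 28171 units on the PVBL arrays, against 2281, 2390 and 1701 units on the sham arrays. On the scaled log2 scale these were 5.65, 5.98 and 6.37 in PVBL, against 2.86, 2.99 and 3.06 in sham. The lowest PVBL value was 2.59 log2 units above the highest sham value, and the PVBL arrays spread more widely (SD 0.36) than the sham arrays (SD 0.10, n = 3 each). The log2 difference was 3.03 ± 0.20 (SE, adjusted p = 0.000127), and 1.07% of all probes tested had a larger one. It was between 2.77 and 3.47 in 18 alternative settings and called in each of them. PVBL 3 was the highest of the 3, and without it the difference was 2.84.

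Anxa5, the annexin that binds phosphatidylserine exposed on dying cells and on activated membranes, was the next in size. The processed signal was 49451, 36983 and 37990 units in PVBL, against 8358, 9737 and 5529 units in sham. Scaled log2 values were 6.92, 6.81 and 6.80 in PVBL, against 4.73, 5.02 and 4.76 in sham. The PVBL arrays were nearly level here (SD 0.07, against 0.16 in sham), with no array set apart, unlike Anxa2. The log2 difference of 2.01 ± 0.13 (SE, adjusted p = 0.000143) was called in each of 18 alternative settings, at 1.95 to 2.45.

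Anxa1, whose protein is induced by glucocorticoids in many cells and dampens leukocyte entry through formyl peptide receptors, was measured by 2 probes that gave like differences. For probe A_55_P2092826 the scaled log2 values were 1.70, 1.71 and 2.24 in PVBL, against 0.33, 0.74 and 0.95 in sham. For probe A_66_P120567 they were -0.48, -0.32 and -0.07 in PVBL, against -1.78, -1.40 and -1.40 in sham. In both probes PVBL 3 was the highest array and sham 1 the lowest, and the groups did not overlap. The log2 differences were 1.21 ± 0.22 (SE, adjusted p = 0.00861) for A_55_P2092826 and 1.24 ± 0.17 (SE, adjusted p = 0.00333) for A_66_P120567. Both stayed past the threshold in 18 alternative settings, at 1.03 to 1.65 and 0.83 to 1.68. The gene-level fits among these are counted for both probes, and the one by brightest probe used A_55_P2092826.

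Anxa4, an annexin abundant in secretory epithelia, showed the smallest change among those called. Scaled log2 values were 3.99, 3.98 and 4.10 in PVBL, against 3.41, 3.46 and 3.44 in sham. The 3 PVBL arrays lay within 0.13 log2 units of each other, the 3 sham arrays within 0.05, and the groups were 0.52 apart at their nearest. The log2 difference was 0.59 ± 0.12 (SE, adjusted p = 0.0115). The call was lost without sham 1 (0.58, adjusted p = 0.055), with no filter on dim probes (adjusted p = 0.0670) and with spike-in scaling (1.03, adjusted p = 0.141).

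To show what lies before the starts of the 4 genes that rose, together with the undetected Anxa10 as a contrast, the 250 bases before each annotated start are given 5′ to 3′ on the gene's strand. They are RefSeq sequences on build GRCm38.p6. Capitals mark matches to any of 4 motifs, each searched on both strands: TGANTCA (the AP-1 element, where N is any base), TATAAA (the TATA box), GGGCGG (the GC box) and GGAATG (the TEAD element). Motif matches shown here do not overlap each other.
Anxa2, chr9:69453433-69453682, + strand: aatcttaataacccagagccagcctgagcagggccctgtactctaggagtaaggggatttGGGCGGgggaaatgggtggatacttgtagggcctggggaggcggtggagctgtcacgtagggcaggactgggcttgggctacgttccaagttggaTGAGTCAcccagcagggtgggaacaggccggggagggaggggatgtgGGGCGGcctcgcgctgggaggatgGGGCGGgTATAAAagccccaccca
Anxa5, chr3:36475888-36476137, - strand: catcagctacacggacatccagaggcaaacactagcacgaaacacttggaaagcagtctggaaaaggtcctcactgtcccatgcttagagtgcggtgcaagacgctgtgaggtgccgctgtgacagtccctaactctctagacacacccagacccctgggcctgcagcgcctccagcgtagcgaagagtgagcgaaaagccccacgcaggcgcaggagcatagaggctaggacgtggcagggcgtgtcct
Anxa1, chr19:20390672-20390921, - strand: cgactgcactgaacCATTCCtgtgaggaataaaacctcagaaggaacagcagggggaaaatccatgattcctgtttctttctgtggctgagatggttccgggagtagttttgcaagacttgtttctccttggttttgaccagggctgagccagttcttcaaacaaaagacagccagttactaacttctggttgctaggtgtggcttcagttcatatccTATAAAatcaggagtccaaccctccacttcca
Anxa4, chr6:86793585-86793834, - strand, the farther upstream of its 2 windows: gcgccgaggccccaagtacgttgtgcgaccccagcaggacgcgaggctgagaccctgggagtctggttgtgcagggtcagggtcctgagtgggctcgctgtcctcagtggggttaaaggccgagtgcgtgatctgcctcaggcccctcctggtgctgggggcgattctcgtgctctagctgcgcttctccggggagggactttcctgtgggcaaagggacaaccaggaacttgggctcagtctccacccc
Anxa10, chr8:62123194-62123443, - strand: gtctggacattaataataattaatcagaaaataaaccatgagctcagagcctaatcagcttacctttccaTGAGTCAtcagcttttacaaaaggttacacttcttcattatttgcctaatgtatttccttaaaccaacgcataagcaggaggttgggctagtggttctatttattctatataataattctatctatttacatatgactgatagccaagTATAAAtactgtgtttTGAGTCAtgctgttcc

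Windows were found for 7 of the 10 annexins (9 windows, with 2 each for Anxa4 and Anxa7), and Anxa3, Anxa6 and Anxa13 had none in the table used. The AP-1 element stood in the windows of Anxa2 and Anxa10, against 6.75% of all 32851 windows. In Anxa2 it began 95 bases before the start, and in Anxa10, whose probe stayed at background, it occurred 2 times, from 180 and from 16 bases before the start. The TATA box stood in those of Anxa1, Anxa2 and Anxa10, against 12.4% of all windows. It began 32 bases before the start in Anxa1 and in Anxa10 and 17 bases before it in Anxa2. The GC box stood in those of Anxa2, Anxa7 and Anxa11 (32.7% of all windows), and the TEAD element in that of Anxa1 alone among the annexin windows (12.6% of all windows). The windows of Anxa4 and Anxa5 held none of the 4 motifs. Matches are descriptions of letters, and the windows of genes that rose and of Anxa10 held the same elements in part.

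Anxa3, known in humans from neutrophils, and Anxa7 (synexin), a calcium-dependent membrane fusion protein, lay close to the threshold, Anxa7 in probe A_51_P402458 only. Anxa3 had scaled log2 values of -1.22, -1.46 and -0.53 in PVBL, against -1.96, -1.71 and -1.83 in sham. The groups did not overlap, but PVBL 3 stood well above the other PVBL arrays, with a PVBL range of 0.92 log2 units. The log2 difference was 0.76 ± 0.24 (SE, adjusted p = 0.0510), and 0.49 (adjusted p = 0.0508) without PVBL 3. Of 17 alternative settings 8 called it higher and 9 did not. Anxa7 was 1.72, 1.90 and 1.67 in PVBL, against 1.39, 1.42 and 1.29 in sham, in probe A_51_P402458. In probe A_55_P1962039 it was 3.49, 3.84 and 3.46 in PVBL, against 3.31, 3.26 and 3.30 in sham. PVBL 2 was the highest array in both probes, and the groups did not overlap in either. The log2 differences were 0.40 ± 0.13 (SE, adjusted p = 0.0523) and 0.30 ± 0.15 (SE, adjusted p = 0.147). The first was called in 8 and the second in 0 of 18 alternative settings. The 8 include the deposited value table, in which the groups were apart in every row, so that call is no separate evidence. The gene-level fit by brightest probe used A_55_P1962039 and is counted for both probes.

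Anxa6, an annexin whose core is duplicated and which is known from endosomes and cholesterol traffic, had nearly equal groups. Scaled log2 values were 5.63, 5.38 and 5.50 in PVBL, against 5.50, 5.54 and 5.17 in sham, a log2 difference of 0.10 ± 0.15 (SE, adjusted p = 0.626). Its 95% interval runs from 0.84-fold to 1.38-fold, so the increases seen for Anxa2, Anxa5, Anxa1 and Anxa4 lie outside it. The interval of Anxa4 (1.24-fold to 1.82-fold) overlaps that of Anxa6. Without sham 3, the lowest array, the difference was -0.014.

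Anxa11, whose protein binds the calcium sensor ALG-2 and tethers RNA granules to lysosomes, was measured by 2 probes. Probe A_55_P1977583 had 3.53, 3.05 and 3.03 in PVBL, against 3.58, 3.65 and 3.27 in sham. Probe A_55_P2084820, a dim one at 35.7 to 46.3 units in PVBL and 35.6 to 39.5 units in sham, had -3.13, -3.21 and -3.21 in PVBL, against -3.15, -3.05 and -2.37 in sham. The groups overlapped in both. The log2 differences were -0.30 ± 0.19 (SE, adjusted p = 0.254) and -0.33 ± 0.22 (SE, adjusted p = 0.268), and both were above 0 with spike-in scaling. Anxa13, an annexin of intestinal epithelium, spread over 0.82 log2 units in PVBL (-2.09, -2.92 and -2.15) and over 0.91 in sham (-2.54, -1.93 and -1.63). Its log2 difference of -0.36 ± 0.30 (SE, adjusted p = 0.386) had a 95% interval of 0.48-fold to 1.28-fold, so changes in either direction within that interval are compatible with these values. The sign was turned with spike-in scaling and with array weights. Anxa10, known in humans from gastric epithelium, had 4.32, 4.75 and 3.22 units in PVBL, against 3.16, 3.21 and 6.23 units in sham. These values are not well above background on any array and give no fold.

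**Figure D2:**
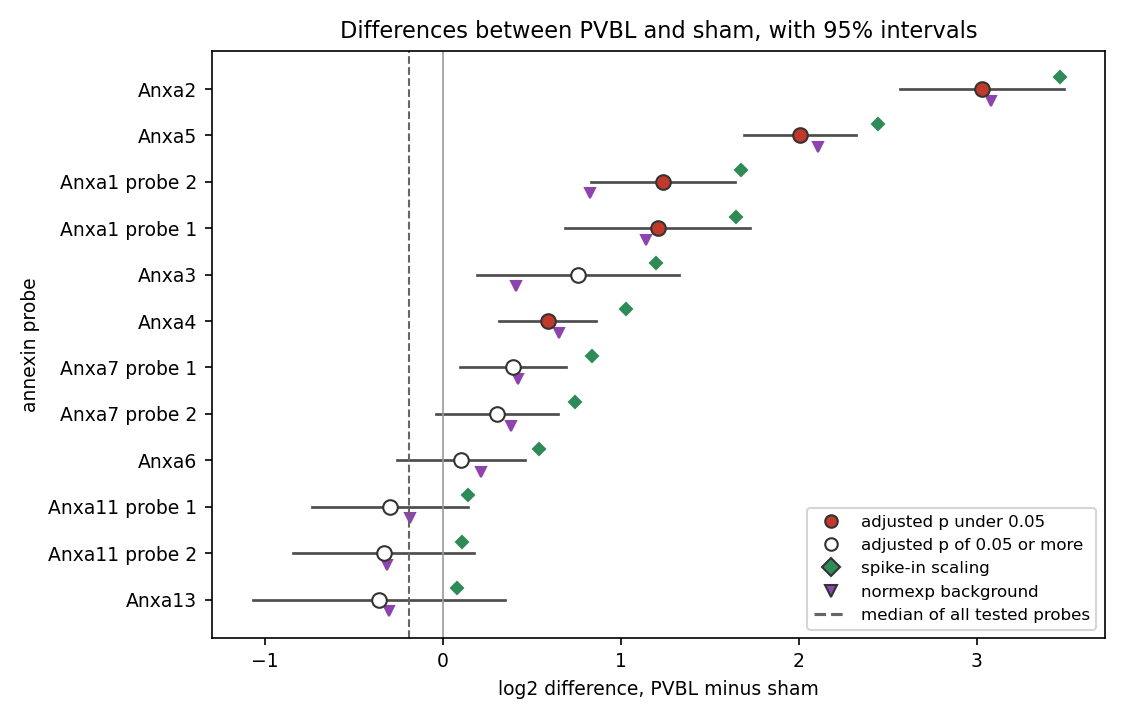
Log2 difference of PVBL minus sham for the 12 annexin probes tested (x axis), ordered by size (y axis), with limma's 95% intervals as lines and filled circles for an adjusted p under 0.05. Green diamonds give the difference with spike-in scaling and purple triangles with normexp background correction, and the dashed line is the median of all probes tested (-0.19). Spike-in scaling moves all 12 probes upward by the same amount, which turns the sign of Anxa11 and Anxa13.

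The order of the differences was Anxa2, Anxa5, Anxa1, Anxa3, Anxa4, Anxa7, Anxa6, Anxa11 and Anxa13. Each probe was set against the next in that order by its log2 ratio within an array, over 11 pairs. Since the order came from these same differences, each mean ratio was larger in PVBL than in sham by construction. With 3 against 3 arrays no pair could reach an exact p under 0.05, so these comparisons do not settle the order. The ratio of Anxa2 to Anxa5 was 1.02 log2 units larger in PVBL than in sham, with no overlap between the groups (exact permutation test, two-sided, p = 0.1, the smallest that 3 against 3 arrays allow, and 0.367 after Benjamini-Hochberg adjustment over the 11 pairs). The ratio of Anxa5 to Anxa1 (A_66_P120567) was 0.77 larger and that of Anxa6 to Anxa11 (A_55_P1977583) 0.40 larger, also without overlap and at the same exact p. For the other 8 pairs the ratios of the groups overlapped. Probes that are not next to each other in this order were not set against each other. The 2 probes of Anxa1 differed from each other by 0.03 log2 units in their PVBL minus sham difference, those of Anxa7 by 0.09 and those of Anxa11 by 0.04.

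Within the PVBL group the annexins did not vary alike. PVBL 3 was the highest array for Anxa1, Anxa2, Anxa3 and Anxa4, PVBL 1 for Anxa5, Anxa6, Anxa11 and Anxa13, and PVBL 2 for Anxa7. Among the sham arrays, sham 1 was the lowest for Anxa1, Anxa2, Anxa3, Anxa4, Anxa5 and Anxa13. The number of arrays is too small for a correlation between members.

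The genes whose profile over the 6 arrays lay nearest to Anxa2 and Anxa5 were sought among 13567 other named genes, by the root mean square distance of centred log2 values. For Anxa2 they were Tnfrsf12a, the receptor of TWEAK (distance 0.127, log2 difference 3.14), Spon2, an extracellular matrix protein (0.156, 2.87), and Ifi27l2b (0.165, 3.13). For Anxa5 they were Kifc3, a minus-end kinesin (0.0859, 1.88), Uap1l1 (0.0980, 2.07), and Sorbs2, an adaptor of actin and adhesion sites (0.121, 1.82). No p is attached to these distances.

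Among the genes of annexin partners 3 of the 4 S100 genes, which encode small dimers that dock on annexin tails, were higher in PVBL by their brightest probe. S100a10, the partner of annexin A2, had scaled log2 values of 5.95, 6.37 and 6.07 in PVBL, against 5.10, 5.13 and 5.02 in sham. S100a11, which binds annexin A1, had 2.09, 2.15 and 2.69 in PVBL, against -0.51, -0.19 and -0.27 in sham. S100a6, which binds annexins A2 and A11, had 2.49, 2.15 and 2.64 in PVBL, against 0.71, 1.02 and 0.78 in sham. No PVBL value of these 3 genes overlapped a sham value. S100a11 was 6.20-fold (adjusted p = 0.00023), S100a6 3.01-fold (adjusted p = 0.0012) and S100a10 2.07-fold higher (adjusted p = 0.00347), and each was called in 18 of 18 alternative settings. The fourth, S100a4, was not called by its brightest probe (log2 difference 0.26 ± 0.27 SE, adjusted p = 0.470, groups overlapping), while the other of its 2 probes was called higher at 1.58, so its probes disagree. The log2 difference was 3.03 for Anxa2 and 1.05 for S100a10, and whether these differ was not tested.

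Of the 20 partner genes 19 were tested, with 25 probes, of which 8 were called higher and 2 lower, against 11.3% and 19.3% of all probes tested. By the brightest probe of each gene, 4 were higher, 2 lower and 13 not called, and the median log2 difference was 0.09. The fourth gene called higher was Pef1, a partner of ALG-2 (1.33-fold, adjusted p = 0.0486), named after its value was seen, and it was not called in 8 of 18 alternative settings, 5 of them with 1 array left out. Sri (sorcin), which binds annexin A7, was at 0.41 ± 0.13 (SE, adjusted p = 0.0543) and was called in 10 of 18. Lower were Cftr, a chloride channel of the biliary epithelium that was well above background on 1 of the 3 PVBL arrays (log2 difference -1.17, adjusted p = 0.0463, lost in 9 of 16 alternative settings), and Plg, the plasminogen made by hepatocytes, named after its value was seen (-0.68 ± 0.15, adjusted p = 0.0161, lost in 4 of 18). The formyl peptide receptor genes Fpr1 (-0.73 ± 0.34, adjusted p = 0.138) and Fpr2 (-0.07 ± 0.41, adjusted p = 0.912) did not pass the threshold, nor did Pdcd6, which encodes ALG-2 (-0.25 ± 0.19, adjusted p = 0.347). In 17 alternative settings Fpr1 was called in 2, Fpr2 in 1 and Pdcd6 in 0. For Ahnak, a giant scaffold that binds annexin A2 with S100A10, the 4 probes ran from -0.40 to 0.82 and 1 was called higher.

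**Figure D3:**
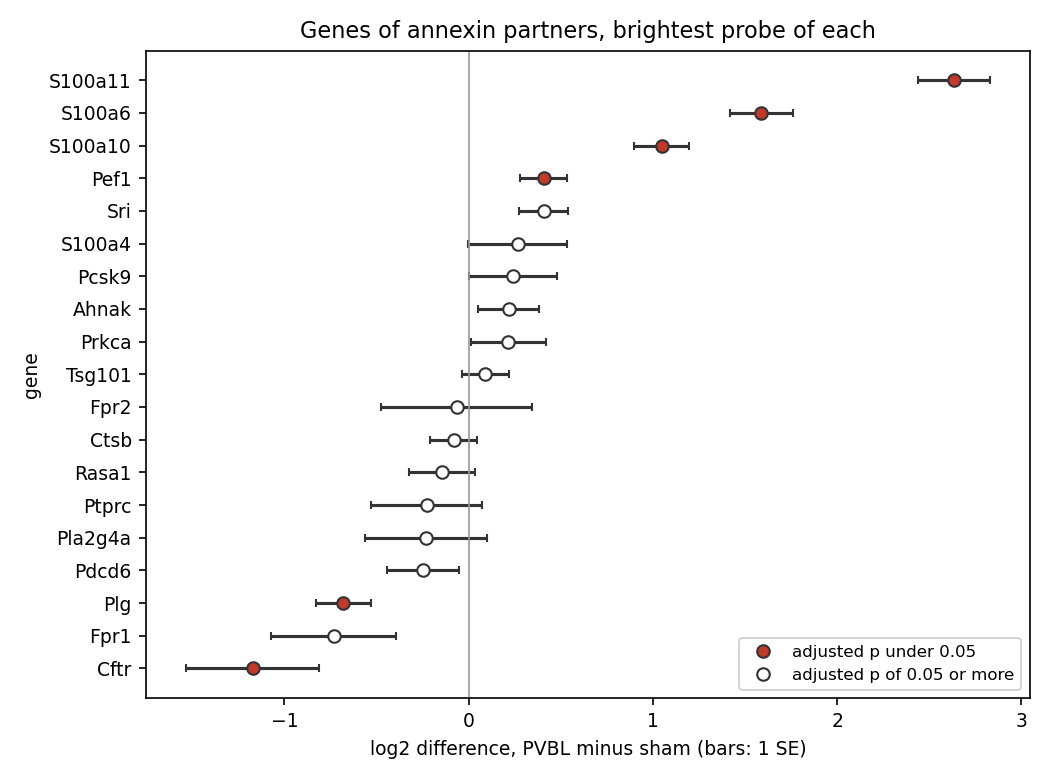
Log2 difference of PVBL minus sham for the 19 tested genes of annexin partners (x axis), each by its brightest probe, with 1 SE as bars and filled circles for an adjusted p under 0.05 in limma. S100a11, S100a6 and S100a10 lie at 2.63, 1.59 and 1.05, and the other partners between -1.17 and 0.41.

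Of 34 genes of copines, ferlins, synaptotagmins and like proteins, which also bind membranes through calcium in many cases, 20 were tested, with 25 probes, of which 0 were called higher (0 also at an unadjusted p under 0.05) and 7 lower, in limma with Benjamini-Hochberg adjustment, against 11.3% and 19.3% of all probes tested. With 25 probes these counts are not set apart from those shares by any test run here. By the brightest probe the median log2 difference was -0.18, and the genes called lower were Syt3 (-1.46 ± 0.23, adjusted p = 0.00484), Syt6 (-1.29), Esyt3 (-0.86), Syt8 (-0.74) and Rph3a (-0.72, named after its value was seen). The call of Syt3 was lost with spike-in scaling alone among 18 alternative settings, and that of Syt6 in 3 of 18. That of Syt8 was lost in 10 of 16, 4 of them with 1 array left out, that of Esyt3 in 9 of 17, 5 of them with 1 array left out, and that of Rph3a in 6 of 17. Syt8 was well above background on 2 of the 3 PVBL arrays, and so was tested through the sham group alone. Of 22 genes of plasma membrane repair 20 were tested, with 28 probes, of which 6 were called higher and 1 lower, against the same shares of all probes, and the median over genes was 0.00. Capns1, the small calpain subunit, was 1.51-fold, Chmp4b, of the ESCRT machinery, 1.42-fold and Ehd1 1.35-fold higher, and Pdcd6ip (ALIX, named after its value was seen) 1.34-fold higher, while Vamp7 was at -0.60. Of the 3 probes of Chmp4b only 1 was called, with log2 differences from 0.15 to 0.51, and of the 2 of Pdcd6ip 1 (0.42 to 0.45). All 5 calls were lost with spike-in scaling and with no filter on dim probes. Capns1 kept its call in the other 16 of 18 alternative settings, and Chmp4b in 12 of 18, losing it without any of the sham arrays. Ehd1 lost its call in 9 of 18, among them each of the 6 with 1 array left out, Pdcd6ip in 8 of 18 and Vamp7 in 8 of 17.

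Some markers of other cells also differed between the groups, and their counts are by the brightest probe of each gene. Over all probes tested, 11.3% were called higher and 19.3% lower. The marker counts are not set apart from these shares by any test run here, and those of lower endothelial and lymphocyte markers lie near the second share. Of 9 tested biliary markers (11 listed) 5 were higher (Krt23, Spp1, Krt19, Krt7 and Cldn7, the last named after its value was seen) and 1 lower (Cftr), and their summed scaled signal was 20.1 to 45.2 in PVBL, against 3.63 to 6.74 in sham. Of 10 stellate cell and fibroblast markers 5 were higher, among them Col1a1, Acta2 and Col3a1, and 1 was lower (Lrat), with sums of 112 to 138 in PVBL, against 118 to 126 in sham. Of 9 macrophage and Kupffer cell markers 1 was higher (Marco) and 1 lower (Mrc1), with sums of 115 to 291 in PVBL, against 155 to 174 in sham. On PVBL 3, the array with the highest Anxa1, Anxa2, Anxa3 and Anxa4, the biliary sum was 45.2, the macrophage sum 291 and the stellate sum 138, each the highest of the 6 arrays. Without PVBL 3 Anxa1, Anxa2, Anxa4 and Anxa5 kept their calls, at 1.03 and 1.13 (Anxa1), 2.84, 0.55 and 2.03. Of 7 proliferation markers 7 were higher, with sums of 83.3 to 126 in PVBL, against 1.25 to 1.49 in sham. Hepatocyte sums were 5063 to 6320 in PVBL, against 6942 to 7768 in sham, with 1 of 10 lower (Fgb) and 0 higher (5 and 0 at an unadjusted p under 0.05). Endothelial markers were lower in 2 of 10 cases (Clec4g and Fcgr2b), with sums of 49.5 to 75.4 in PVBL, against 110 to 118 in sham, and lymphocyte markers in 2 of 8 (Cd8a and Cd3g), with sums of 39.7 to 74.9 in PVBL, against 64.5 to 84.5 in sham. Cd8a was well above background on 0 of the 3 PVBL arrays and on all 3 sham arrays. It was thus tested through the sham group alone, and its call rests on PVBL values near background. Of 7 monocyte and neutrophil markers and 5 mesothelial markers 0 were called by limma (0 also at an unadjusted p under 0.05), with sums of 79.4 to 109 and 0.93 to 2.89 in PVBL, against 95.9 to 119 and 0.54 to 1.58 in sham. The brightest genes weigh most in each sum. Csf3r carried most of the monocyte and neutrophil sum. Cd4 did so for lymphocytes and Dcn for stellate cells and fibroblasts, both named after their values were seen. Such sums say little about the dimmer markers of their lists. Over all 10 monocyte and neutrophil probes 2 were called lower, 1 of 3 for Itgam and 1 of 2 for Camp. Several of these marker calls did not hold in all alternative settings. Among lower ones Cd3g was lost in 10 of 17, Mrc1 and Fcgr2b each in 8 of 18, Fgb in 7 of 18, Lrat in 6 of 18, Cd8a in 5 of 17 and Clec4g in 1 of 18, and each of these with spike-in scaling. Among higher ones Cldn7 was lost in 4 of 17, Col3a1 in 3 of 17 and Krt7 and Spp1 each in 1 of 17. Krt23, Krt19, Marco, Col1a1 and Acta2 kept their calls. Mpo, of neutrophils, was the 1 marker on the arrays that did not stand well above background on any of them. The part of any of these cells in the annexin values was not tested.

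**Figure D4:**
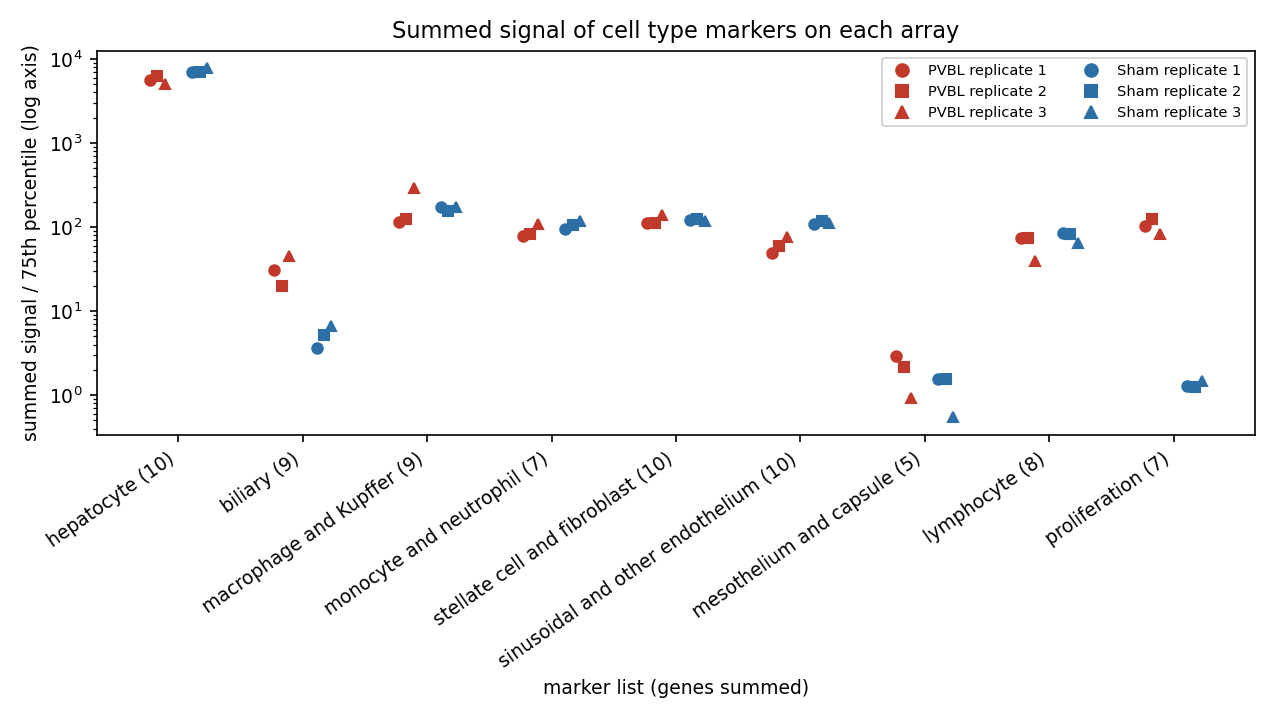
Summed signal of each marker list on each array, divided by the array's 75th percentile (y axis, log scale), with the number of genes summed in parentheses (x axis), PVBL arrays in red and sham arrays in blue. The biliary and proliferation sums lie higher in PVBL than in sham on every array, the hepatocyte and endothelial sums lower. The brightest genes of a list weigh most in its sum.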

How the data were processed

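Total RNA was labelled with Cy3 by a low-input amplification kit, per the labels' protocols. The deposited scanner files give spot intensity values from Agilent Feature Extraction 10.7.3.1 on array design 028005 (mm9), per the file headers (the submitters' processing notes name version 9.1), already corrected for background. The deposited value table holds log2 values of 7849 probes, centred per probe, its normalization not given in the sources used here. It was an alternative only. It is counted among the alternative settings of each probe that it holds, where a call with it is no separate evidence, since the groups were apart in all its rows.

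Control spots and outlier spots (115 to 201 per array) were left out, spots of a probe averaged, and log2 processed signals scaled by each array's 75th percentile. Probes well above background on all arrays of a group were tested (27909 of 55681) with limma 3.58.1 in R 4.3.3 (lmFit, eBayes, two-sided, Benjamini-Hochberg over all of them), each probe on its own. SE are moderated. The script was checked on simulated data. Probes were named through RefSeq accessions (table of GRCm38.p6, for names only; 26413 named), and whether the Anxa2 probe also meets an Anxa2 pseudogene was not tested. Members, gene lists and motifs were chosen with earlier results of these data known. The text names all members, and of each list up to 4 called genes with the largest change; genes outside this rule (S100a4, Sri, Fpr1, Fpr2, Pdcd6, Ahnak, Camp, Mpo, Alb, Hnf4a and those so marked) were named after their values were seen. A gene below background in 1 whole group is named without a fold. The scanner files used here hold median signals, so the normexp alternative (offset 50) used these. The alternatives were scaling, background, filter, weights, prior, replicate block, each array left out, the value table and gene-level fits.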

Additional observations from a re-analysis of the deposited data

How the results depend on the processing

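The number of annexin probes called higher was 5 in the reported setting and between 4 and 7 in the alternatives (7 with median scaling, quantile normalization, array weights, a trended robust prior, or only probes well above background on all 6 arrays; 4 with spike-in scaling or no filter), and 4 to 6 with any 1 array left out. At the gene level 5 genes were called with either way of joining probes. The number called lower was 0 in each of these settings. Signs turned, in no case with a call, for Anxa6 without sham 3 (-0.0143; -0.0143 to 0.169 with any 1 array left out), for the 2 probes of Anxa11 with spike-in scaling (0.144 and 0.109), and for Anxa13 with spike-in scaling (0.0817) and array weights (0.0323). Among listed genes they turned for S100a4 without PVBL 3 (-0.0504; -0.0504 to 0.495 with any 1 array left out), Fpr2 with median scaling (0.0666), spike-in scaling (0.375) and without PVBL 1 (0.402; -0.507 to 0.402 with any 1 array left out), Pdcd6 with spike-in scaling (0.19), Itgam (0.189) and Csf3r (0.144) with spike-in scaling, and for Wt1 with normexp (-0.184), without PVBL 1 (-0.0736) and without sham 3 (-0.0731; -0.0736 to 0.321 with any 1 array left out). The count of all probes called, 8516, was 2487 with spike-in scaling, 3621 with no filter (more probes tested), 15741 with array weights, 4160 to 8496 with any 1 array left out (4160 without sham 1, 4988 without sham 3, 5108 without sham 2 and 5496 without PVBL 1), and 4476 and 4543 genes at the gene level by brightest probe and by mean of probes (fewer features tested); for the other settings the cause was not tested. With the replicate number as a block, 5 annexin probes were called higher and 0 lower, and 7390 of all probes. Deviations of same-numbered arrays correlated at 0.197, -0.0394 and 0.231, and those of differently numbered arrays at -0.254 to 0.147. Same-numbered arrays also shared a column of the slide, so the block stands for slide column as well. Whether the column or another pairing affects the values was not tested further. In 100% of the rows of the deposited value table the groups did not overlap, so the 6 of 7 annexin probes called with it are no separate evidence. Values near background, as for Anxa10, cannot be ordered.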
